A study of Mus musculus with 8 samples.

Results

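The estrogen-related receptors (ERRs) and the cofactors that work with them were followed as 8 genes in NIH3T3 mouse fibroblasts. The 3 receptor genes were Esrra, Esrrb and Esrrg, the 3 PGC-1 family coactivator genes were Ppargc1a, Ppargc1b and Pprc1, and the remaining cofactor genes were Nrip1 and Ncoa3. All 8 are named genes, and each was found by position, as the assembled locus that overlapped the annotated mm9 gene best in each of 8 samples. They are 8 of 20194 genes with a value in every sample, and 4 of them were among the 10283 genes that were expressed highly enough to be tested. The unit is FPKM, fragments scaled to transcript length and to the mapped fragments of the sample, so levels can be set side by side between genes.

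The RNA-Seq samples came from 4 conditions with 2 samples each. Control samples were NIH3T3 cells stably transfected with the empty vector pcDNA3.1 (NIH3T3-pc3.1) and given vehicle medium, which came from HEK293 cells without the Shh transgene. Hh-CM samples were the same line given medium conditioned by HEK293 cells that secrete the amino-terminal fragment of Sonic hedgehog (Shh) from a transgene. Esrrb and Esrrb+Hh-CM samples were NIH3T3 cells stably transfected with pcDNA3.1 (Zeo+)-Esrrb (NIH3T3-Esrrb), given vehicle medium or Hh-CM. All cells had been selected with 150 ug/ml Zeocin and were treated for 48 h in 5% serum without phenol red, with either medium diluted 100-fold. The methods describe 2 independent transfections with pooling of the established cells, and do not say clearly whether the 2 were merged. The effect of the vector and any other difference between the lines cannot be told apart. The methods call the 2 samples of a condition biological replicates without saying whether they came from separate cultures or transfections, so the p-values measure only the spread between these samples, which may be technical.

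ERRs are orphan nuclear receptors. They bind an extended half-site called the ERR element without a known natural hormone, and they depend on cofactors for their activity. PGC-1α and PGC-1β, the products of Ppargc1a and Ppargc1b, serve as protein ligands of ERRs and turn on genes of mitochondrial respiration and fatty acid oxidation, and PRC, the product of Pprc1, is a relative linked to cell growth. RIP140 (Nrip1) is a corepressor that opposes PGC-1α at many of the same genes. Ncoa3 encodes the steroid receptor coactivator SRC-3, through which Esrrb acts in embryonic stem cells.

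Fibroblast genes marked all 8 samples: the 9 measured members of a 10-gene fibroblast list were at or above 1 FPKM in every sample, with a summed level of 5540 to 6460 FPKM. None of 6 epithelial, 4 muscle and 5 pluripotent cell markers reached 1 FPKM in at least 2 samples. Of the 4 measured blood markers 1, Cd68, did. Among endothelial markers Tek, with 0.0702 and 0.108 FPKM in Control, rose to 1.06 and 1.24 FPKM with Hh-CM. The change was 2.73 on the log2 scale (limma adjusted p = 0.00418). Tek reached 1 FPKM only in samples with Hh-CM, so it entered the test through them. Mean Pecam1 went from 0.0380 to 0.0876 FPKM and mean Cdh5 from 0 to 0.0693 FPKM, and neither was tested. Kdr was at 0 throughout. Of the 9 fibroblast genes 4 rose and 2 fell in the libraries labelled Esrrb against Control, where 16.4% of all tested genes changed. The largest changes each way were Col3a1, higher by 0.59 (adjusted p = 0.00178), and Fn1, lower by 0.76 on the log2 scale (adjusted p = 0.00794). The Hedgehog target Gli1 rose with Hh-CM by 7.77 on the log2 scale (adjusted p = 2.84e-05). Relative depth, read from the smallest steps of the FPKM values, lay between 0.743 and 1.54 of that of Control replicate 1. Esrrb replicate 1 stood apart in its assembly: 8080 of its loci shared both number and position with Hh-CM replicate 2, against at most 106 for any other pair, and 4339 of its identifiers were repeated against 136 to 147 elsewhere. Values without one of these samples are given where leaving it out ended a call of the 8 genes or moved a count of list genes by over 1.5 times.

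Esrrb, the receptor that the vector carries, comes first. Its locus on chr12:87702067-87862578 (plus strand) was at 0 FPKM, with an upper confidence limit of 0, in both samples labelled Esrrb and in both labelled Esrrb+Hh-CM. It was also at 0 in both Control samples. The only values above 0 were 0.0281 FPKM in Hh-CM replicate 1 and 0.0203 FPKM in Hh-CM replicate 2, each equal to 2 of the smallest steps of that sample. A count of 0 in these 4 libraries allows a level of up to 0.0482 to 0.0632 FPKM, taking 3 steps as the limit for counting error. The cause was not tested, and the sources used here do not give the species of the Esrrb cDNA. Whether transcripts of the vector would be counted at this locus is not known, so the zeros cannot check the labels. Comparisons with the Esrrb vector below are named by label, as comparisons of the libraries labelled Esrrb.

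Esrrg on chr1:189432885-190038763 (plus strand) was barely detected. Control samples were at 0.0368 and 0.0209 FPKM, Hh-CM at 0.0331 and 0.00797, the libraries labelled Esrrb at 0 and 0, and those labelled Esrrb+Hh-CM at 0.0130 and 0.0165. In steps, the values came to 3 and 2, then 3 and 1, then 0 and 0, then 1 and 1, or 11 in all 8 samples. Steps were 1 to 3 in the empty-vector samples and 0 or 1 in the others. With so few steps counting error is large, and no difference between conditions or lines was tested.

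Esrra, which encodes the ERR most tied to mitochondrial genes in adult tissues, was listed at 0 FPKM in all 8 samples at chr19:6985467-6996298 (minus strand). These zeros differ from those of Esrrb, since each carried an upper confidence limit above 0, from 0.0551 to 0.110 FPKM in 7 samples and 1.31 FPKM in Control replicate 2. Between 647 and 1104 loci of each sample had a 0 of this kind, which can be a failed estimate. The locus of the neighbouring gene Trmt112, which shares 50 bases with the end of Esrra on the other strand, was given 53.8 to 80.9 FPKM, above its own upper confidence limit in all 8 samples. No level of Esrra and no fold change can be drawn from these values.

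**Figure D1:**
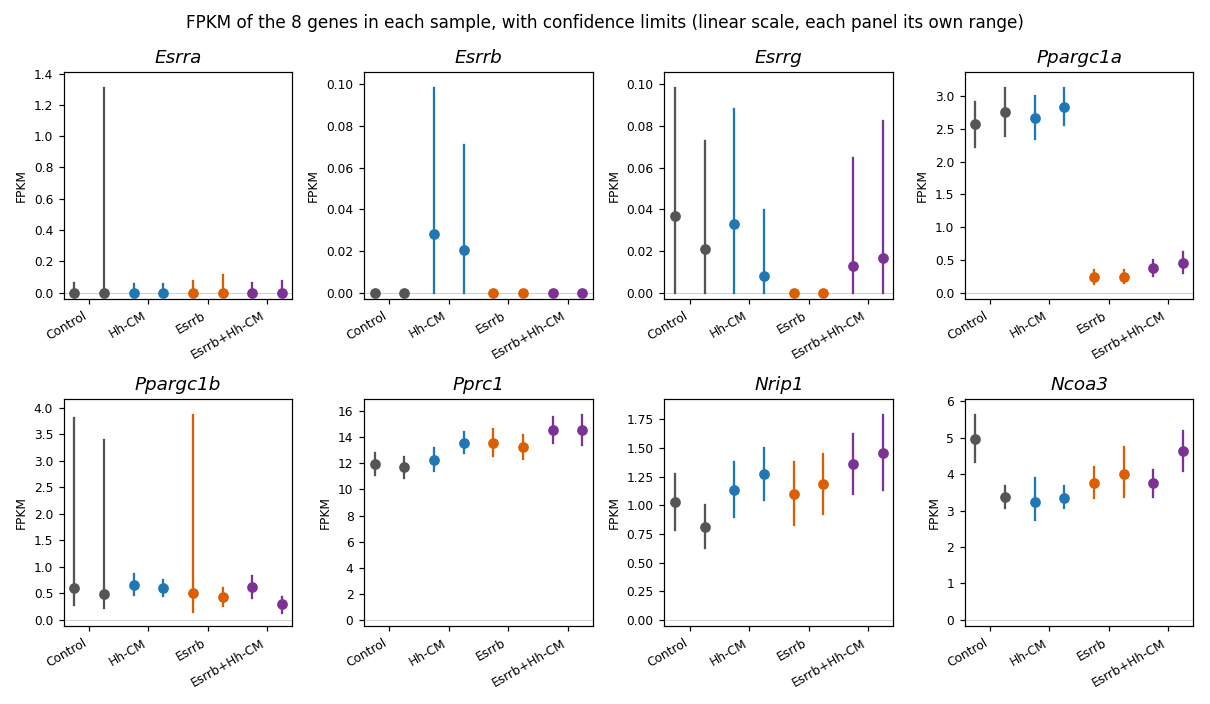
FPKM (linear vertical axis, a separate range in each panel) of the 8 genes in the 2 samples of each condition, with points for the deposited values and lines for the deposited confidence limits. Ppargc1a lies between 2.57 and 2.84 FPKM in Control and Hh-CM and between 0.234 and 0.457 FPKM in the libraries labelled Esrrb and Esrrb+Hh-CM, the widest separation between the lines among the 4 tested genes.

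By median FPKM over the 8 samples the order was Pprc1 (13.4), Ncoa3 (3.75), Ppargc1a (1.51), Nrip1 (1.16), Ppargc1b (0.553) and Esrrg (0.0147). Ppargc1a ranged over Nrip1 and Ppargc1b but stayed below Ncoa3, while Pprc1 lay above and Esrrg below the other 4 in every sample. The Ppargc1a median falls between the levels of the 2 lines. That of Nrip1 leaves out separate loci at the end of the gene, at 1.43 to 4.79 FPKM, so the order of these 2 genes is loose.

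Ppargc1a, the gene of PGC-1α, differed most. It was measured at 2.57 and 2.75 FPKM in Control and at 2.67 and 2.84 FPKM in Hh-CM. It was at 0.234 and 0.246 FPKM in the libraries labelled Esrrb and at 0.377 and 0.457 FPKM in those labelled Esrrb+Hh-CM. All 4 samples of the empty-vector line were high, all 4 of the other line were low, and the confidence limits of the high samples (lowest 2.23 FPKM) lay far from those of the low samples (highest 0.618 FPKM). The locus, chr5:51845488-51945160 on the minus strand, had the same ends in all 8 samples.

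The fall was 11.1-fold in mean FPKM from Control to the libraries labelled Esrrb, from 2.66 ± 0.129 to 0.240 ± 0.00845 (SD, n = 2 each). On the log2(FPKM + 0.1) scale, which understates changes of low genes, Ppargc1a fell by 3.02 (SE 0.171, limma adjusted p = 0.000494). Of the 4 tested genes 1 passed in this comparison, where 16.4% of all tested genes did and 6.16% were called lower. Without Esrrb replicate 1 the value was -2.99 (adjusted p = 0.005). Of 10283 genes, 41 had a lower log2 fold change than Ppargc1a, and 31 of those were at 0 in at least 1 sample. With Hh-CM in both arms, mean FPKM was 6.61-fold lower in the libraries labelled Esrrb+Hh-CM, at 0.417 ± 0.0563, than in Hh-CM, at 2.75 ± 0.117 (SD, n = 2 each). The log2 change there was -2.47 (SE 0.171, adjusted p = 0.000956), and 1 of the 4 tested genes passed against 18.9% of all tested genes, with 6.53% called lower. Without Hh-CM replicate 2 it was -2.43 (adjusted p = 0.0125).

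Ppargc1a reached the limit of 1 FPKM only in the 4 samples where it was high, so a gene with such values entered the tests through those samples. With no limit on FPKM it fell by 3.02 from Control to the libraries labelled Esrrb as well (adjusted p = 0.00061), and the call held in all 18 alternatives that could test it (adjusted p up to 0.00834). The exact permutation test of 2 against 2 samples cannot go below p = 0.33, so the p-values rest on the spread that limma shares across genes. Among markers of other cells, Ptprc of blood cells also followed the line. It was at 0.225 to 0.265 FPKM in the empty-vector samples and 0.0133 to 0.0590 FPKM in the others, and its part in the result was not tested. Cd68 and Emr1, also of the blood list, did not follow the line. Mean Cd68 was 1.15 FPKM in Control, 1.56 in the libraries labelled Esrrb, 2.105 in Hh-CM and 1.80 in those labelled Esrrb+Hh-CM. Mean Emr1 was 0.0468, 0.0588, 0.0980 and 0.0493 FPKM in the same order. The summed level of the 4 measured blood markers was 0.999 to 1.87 FPKM in Control and 1.42 to 1.92 FPKM in the libraries labelled Esrrb, 2.09 to 2.81 FPKM in Hh-CM and 1.64 to 2.09 FPKM in those labelled Esrrb+Hh-CM, and Cd3e was at 0 throughout.

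Hh-CM gave no detectable difference of Ppargc1a in the empty-vector line. The log2 difference between Hh-CM and Control was 0.05, with a 95% interval from -0.37 to 0.47 (adjusted p = 0.893). In the other line the samples with Hh-CM were both higher than those without, by 1.74-fold in mean FPKM, yet the log2 difference of 0.60 (95% interval 0.18 to 1.02) missed the threshold (adjusted p = 0.0552). It passed with a pseudocount of 0.001 (adjusted p = 0.0288), without a variance trend (adjusted p = 0.00753) and when only genes with the same locus ends in all samples were tested (adjusted p = 0.0453), and in none of the other 15 alternatives. The difference between these responses, the interaction, was 0.55 (95% interval -0.05 to 1.15, adjusted p = 0.311).

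Promoter sequences of the 3 members that changed are shown at or near the start of each deposited locus. Assembly was guided by the annotation, so these starts are not measured starts of transcription. The Ppargc1a window was read from the mm9 genome, since the RefSeq start of this gene lies 13804 bases upstream of the deposited locus. Which start these cells use was not tested. The Pprc1 and Nrip1 windows are from RefSeq (mm9), and the locus began at that start in 5 of 8 samples for Pprc1 and in all 8 for Nrip1. Each run holds the 250 bases before the start and the first 20 bases from it, on the gene's strand. Capitals mark the cAMP response element TGACGTCA in Ppargc1a, at chr5:51945141-51945410, the half-site AGGTCA in Pprc1, at chr19:46130779-46131048, and overlapping GC boxes GGGCGG in Nrip1, at chr16:76373275-76373544.
Ppargc1a: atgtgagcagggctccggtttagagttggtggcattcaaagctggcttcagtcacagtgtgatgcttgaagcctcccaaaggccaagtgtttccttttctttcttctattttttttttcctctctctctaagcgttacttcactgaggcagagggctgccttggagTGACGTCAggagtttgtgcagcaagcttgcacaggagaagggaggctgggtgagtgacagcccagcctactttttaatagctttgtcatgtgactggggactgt
Pprc1: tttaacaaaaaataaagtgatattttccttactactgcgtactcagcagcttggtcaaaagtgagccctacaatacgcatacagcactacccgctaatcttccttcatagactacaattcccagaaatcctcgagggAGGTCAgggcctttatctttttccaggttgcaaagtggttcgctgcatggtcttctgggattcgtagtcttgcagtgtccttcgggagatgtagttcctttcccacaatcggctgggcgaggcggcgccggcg
Nrip1: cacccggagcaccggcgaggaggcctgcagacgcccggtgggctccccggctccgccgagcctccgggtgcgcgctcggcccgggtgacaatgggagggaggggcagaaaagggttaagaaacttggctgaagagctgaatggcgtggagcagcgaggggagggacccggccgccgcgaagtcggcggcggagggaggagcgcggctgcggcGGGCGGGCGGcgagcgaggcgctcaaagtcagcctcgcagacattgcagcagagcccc

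The Ppargc1a window held TGACGTCA 84 bases before the start of the deposited locus. This palindrome, the site of CREB family factors through which cAMP raises Ppargc1a in liver and muscle, occurs in 1.79% of 32851 promoter windows of 300 bases in RefSeq. It matched none of the 11 RefSeq windows of 6 members, among them that of Ppargc1a, and was found only in the window read from the genome. The Pprc1 promoter held AGGTCA, the half-site that many nuclear receptors share, 113 bases before the start, as 16.3% of all windows do on either strand. The Nrip1 promoter held the GC box GGGCGG 38 and 34 bases before the start, a motif in 35.7% of all windows. The core of the ERR element, AAGGTCA, which contains AGGTCA, was searched on both strands in the 11 RefSeq windows of 6 members and matched none, where 4.72% of all windows have it. The Gli site GACCACCCA also matched none of the 11 windows, against 0.253% of all. These matches describe letters in the windows and do not show binding.

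Pprc1, on chr19:46131029-46147399 (plus strand), was the most abundant member. It was measured at 11.9 and 11.7 FPKM in Control, 12.3 and 13.6 FPKM in Hh-CM, 13.6 and 13.2 FPKM in the libraries labelled Esrrb and 14.5 and 14.5 FPKM in those labelled Esrrb+Hh-CM. Every other condition lay above Control, and the combination lay highest, but the whole range over 8 samples was 1.24-fold. Only the combination rose above Control by the test, by 0.30 on the log2 scale or 1.23-fold in mean FPKM (SE 0.0601, adjusted p = 0.0133). In that comparison 3 of the 4 tested genes passed, Ppargc1a lower and Pprc1 and Nrip1 higher, against 35.0% of all tested genes, with 23.0% called higher and 12.0% lower. The Ppargc1a change there was -2.42 (adjusted p = 0.000266). The Pprc1 call was lost without Control replicate 1 (adjusted p = 0.0515) or Control replicate 2 (adjusted p = 0.0651). Its differences with Hh-CM alone (0.13, adjusted p = 0.220, and 0.05 without Hh-CM replicate 2) and in the libraries labelled Esrrb (0.18, adjusted p = 0.0959) did not pass.

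Ppargc1b, on chr18:61457790-61560085 (minus strand), stayed below 1 FPKM in every sample and was not tested. Control samples were at 0.597 and 0.493 FPKM, Hh-CM at 0.668 and 0.599, the libraries labelled Esrrb at 0.510 and 0.428, and those labelled Esrrb+Hh-CM at 0.630 and 0.292 FPKM. The last pair alone spanned more than the other 3 conditions, and upper limits of 3.39 to 3.86 FPKM in both Control samples and in Esrrb replicate 1 show how loosely some values were set. The order of Ppargc1a and Ppargc1b differed between conditions. In Control and Hh-CM Ppargc1a lay above Ppargc1b in all 4 samples, in the libraries labelled Esrrb it lay below it in both, and in those labelled Esrrb+Hh-CM it lay below in replicate 1 and above in replicate 2. The upper limits of Ppargc1b in both Control samples lay above the values of Ppargc1a.

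Nrip1, on chr16:76291107-76373294 (minus strand) in 5 of 8 samples, was measured close to the limit of 1 FPKM. Control samples were at 1.03 and 0.815 FPKM, Hh-CM at 1.13 and 1.28, the libraries labelled Esrrb at 1.10 and 1.19, and those labelled Esrrb+Hh-CM at 1.36 and 1.46 FPKM. The combination was above Control by 1.53-fold in mean FPKM and by 0.57 on the log2 scale (SE 0.175, adjusted p = 0.0495). That call was lost in 13 of 17 alternatives, among them every one that left out a sample, where the adjusted p reached 0.196 without Control replicate 2. The end of the gene was also assembled into 16 separate loci over the 8 samples, at 1.43 to 4.79 FPKM. The chosen locus ended at 3 other positions in the remaining 3 samples, Control replicate 2 and both labelled Esrrb+Hh-CM. Its extent thus differed between samples of the comparison in which Nrip1 passed, and the part of this in the call was not tested. Nrip1 did not pass with Hh-CM alone (0.36, adjusted p = 0.227) or in the libraries labelled Esrrb (0.29, adjusted p = 0.306).

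Ncoa3, on chr2:165818137-165898742 (plus strand), passed in none of the 5 comparisons. It was at 4.97 and 3.38 FPKM in Control, 3.23 and 3.36 FPKM in Hh-CM, 3.76 and 4.01 FPKM in the libraries labelled Esrrb and 3.74 and 4.64 FPKM in those labelled Esrrb+Hh-CM. The 2 Control samples lay further apart than those of any other condition, with confidence limits of 4.34 to 5.61 FPKM and 3.08 to 3.68 FPKM that do not overlap. Between the libraries labelled Esrrb+Hh-CM and Control the log2 difference was 0.02, with a 95% interval from -0.46 to 0.51. The difference between the libraries labelled Esrrb and Control was -0.08 (adjusted p = 0.832), and it was 0.20 without Control replicate 1. With Hh-CM alone it was -0.31 (95% interval -0.79 to 0.18, adjusted p = 0.346).

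**Figure D2:**
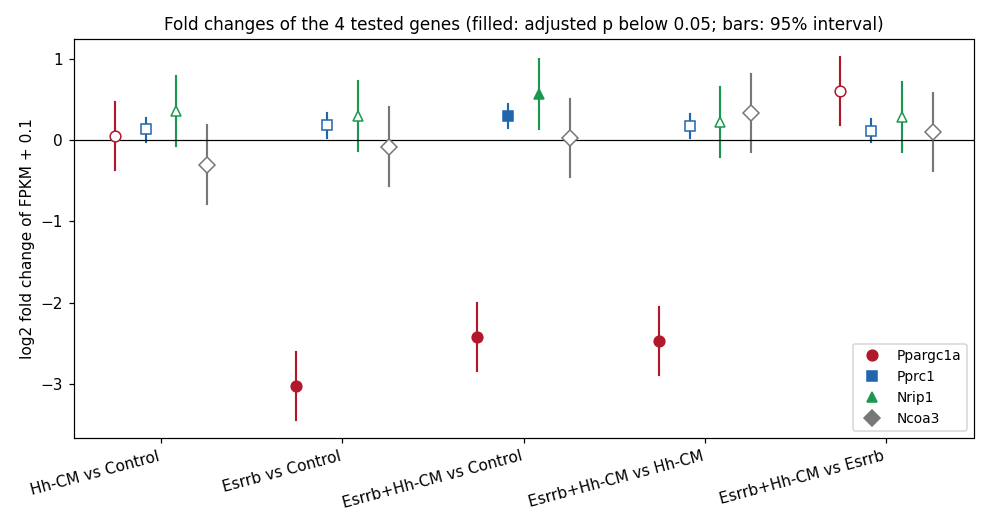
Log2 fold changes of FPKM + 0.1 (vertical axis) of the 4 tested genes in the 5 comparisons (horizontal axis), with bars for the 95% interval from limma and filled symbols for an adjusted p below 0.05. Ppargc1a is the only one of the 4 beyond 1 in size, at -3.02, -2.42 and -2.47 in the comparisons across the lines, and Pprc1 and Nrip1 pass at 0.30 and 0.57 in a single comparison.

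By comparison, Hh-CM against Control changed none of the 4 tested genes, where limma called 18.0% of all tested genes, and none had an unadjusted p under 0.05 either. The libraries labelled Esrrb+Hh-CM against those labelled Esrrb also gave 0 of 4, against 23.4% of all tested genes, and 1 of the 4, Ppargc1a, had an unadjusted p under 0.05. The interaction gave 0 of 4, against 1.35% of all tested genes, with no unadjusted p under 0.05. The median log2 fold change of all tested genes lay between 0.00 and 0.08 in these comparisons. Several comparisons share samples: Control enters 3 of them, and Hh-CM, Esrrb and Esrrb+Hh-CM each enter at least 2.

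Over the 8 samples the genes most like Ppargc1a were Ces1d, a carboxylesterase (Pearson r = 0.991), Sema3a, a secreted guidance protein (r = 0.991), and Mtap2, a microtubule-associated protein (r = 0.991). The 8 points share their libraries and fall into the 2 lines, so these correlations are a description. Ces1d was at 1.72 to 2.30 FPKM in the empty-vector samples and at 0 to 0.0477 FPKM in the others. Sema3a was at 8.03 to 10.0 FPKM and at 2.62 to 2.98 FPKM, and Mtap2 at 1.09 to 1.68 FPKM and at 0.0281 to 0.0883 FPKM, in the same order. Pprc1 was most like Ralgapb (r = 0.984), Dhx15 (r = 0.983) and Rere (r = 0.978). Nrip1 was most like Hdac6 (r = 0.963), Ralgapa1 (r = 0.958) and Exoc4 (r = 0.957), and Ncoa3 was most like 1600012F09Rik (r = 0.955), Ppp1r12c (r = 0.947) and Hgs (r = 0.946).

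**Figure D3:**
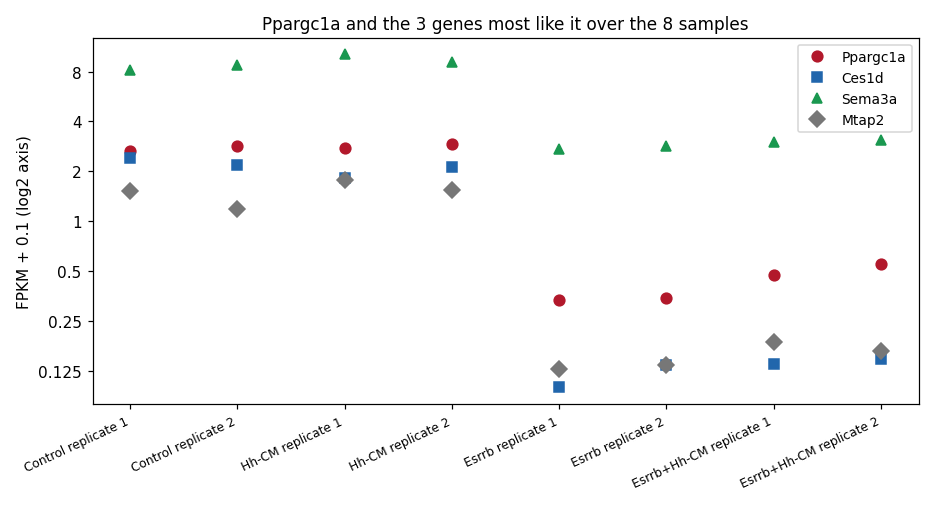
FPKM + 0.1 (log2 vertical axis) of Ppargc1a and the 3 genes with the highest Pearson correlation to it, in each of the 8 samples (horizontal axis). All 4 genes are high in the 4 samples of the empty-vector line and low in the 4 samples labelled Esrrb or Esrrb+Hh-CM, with Sema3a the most abundant at up to 10.0 FPKM.

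Genes that other work has reported as ERR targets were counted next, 27 of 37 being tested. Against Control, in the libraries labelled Esrrb 3 rose, 4 fell and 20 did not pass, where 16.4% of all tested genes were called. The median log2 fold change was -0.06 beside 0.05 over all tested genes. Lpl, which encodes lipoprotein lipase, rose by 0.33 (106.8 to 134.7 FPKM, adjusted p = 0.00444), and Spp1, the gene of osteopontin, fell by 0.31 (adjusted p = 0.00696). Sdhb, a subunit of succinate dehydrogenase, fell by 0.25 (adjusted p = 0.0245), and Cpt1a, the gate of mitochondrial fatty acid import, rose by 0.22 (adjusted p = 0.0117). Without Esrrb replicate 1, and also without Hh-CM replicate 2, 2 rose and 1 fell. The Sdhb call was among those lost (adjusted p up to 0.109), and that of Cpt1a was lost without either Control sample or Esrrb replicate 2 (up to 0.0657). The other calls were Cs (0.12, adjusted p = 0.0473), Hadha (-0.21, adjusted p = 0.0277) and Pdk4 (-0.15, adjusted p = 0.0459). The oxidative phosphorylation genes Atp5b, Cycs, Cox6c and Ndufa4 did not pass in this comparison, with log2 differences between -0.12 and 0.04. Atp5b did pass in the libraries labelled Esrrb+Hh-CM against Control (0.18, adjusted p = 0.0141).

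With Hh-CM against Control 1 target rose, 3 fell and 23 did not pass, where 18.0% of all tested genes were called. The median was -0.03 beside 0.04 over all tested genes. Cpt1a fell by 1.2 (66.4 to 28.8 FPKM, adjusted p = 3.01e-05), Pdk4, which restrains pyruvate oxidation, fell by 1.11 (73.0 to 33.7 FPKM, adjusted p = 4.62e-05), and Spp1 fell by 1.03 (adjusted p = 8.82e-05). Lpl rose by 0.40 (adjusted p = 0.00167). Without Hh-CM replicate 2, 2 rose and 3 fell. In the libraries labelled Esrrb+Hh-CM against Control 6 rose, 4 fell and 17 did not pass, where 35.0% of all tested genes were called. The median there was -0.03 beside 0.08. Pdk4 fell by 1.88 to 19.7 FPKM (adjusted p = 5.72e-06), Cpt1a by 1.14 and Spp1 by 1.07, and Lpl rose by 0.71 to 174.9 FPKM (adjusted p = 0.000103). The interaction passed for 1 target, Pdk4 (-0.62, adjusted p = 0.00841), and for 2 without Hh-CM replicate 2. Of all tested genes 1.35% passed in the interaction. Pdk4 was lower with Hh-CM by 1.11 in the empty-vector line and by 1.74 in the other. The loci of Cpt1a differed in extent between samples (lowest overlap 0.739).

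**Figure D4:**
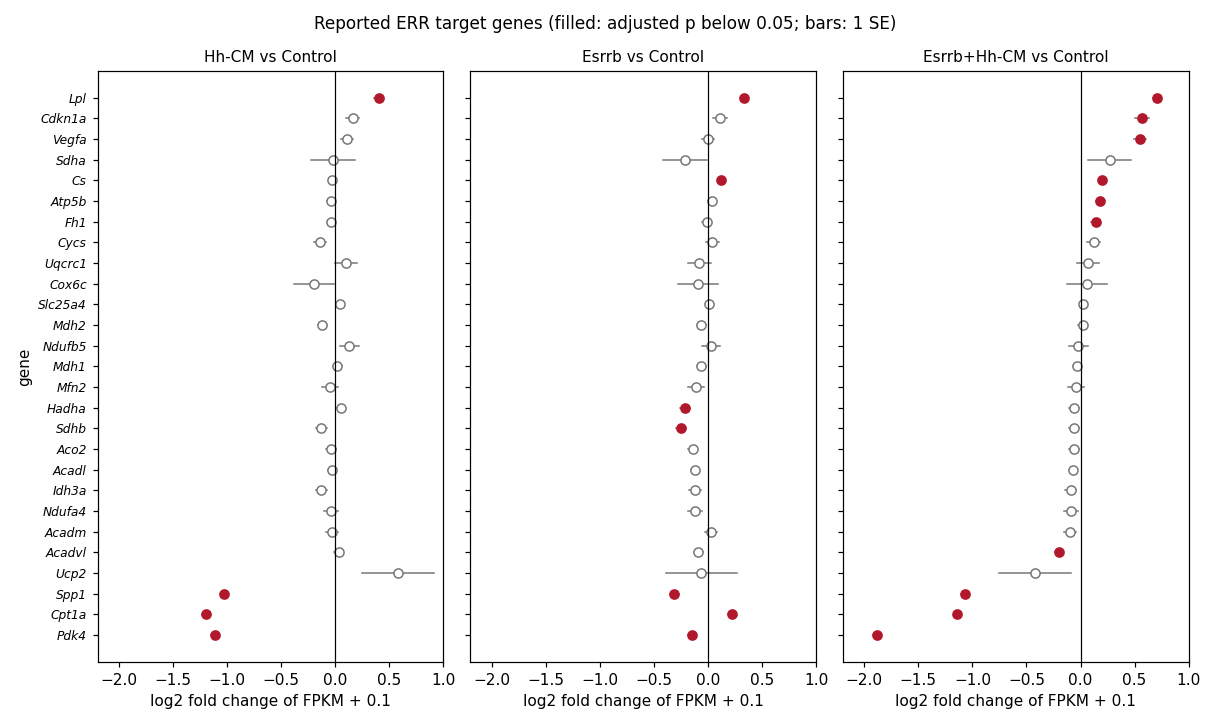
Log2 fold changes of FPKM + 0.1 (horizontal axes) of the 27 tested genes reported as ERR targets (vertical axis) in 3 comparisons with Control, with bars of 1 SE from limma and filled points for an adjusted p below 0.05. Pdk4, Cpt1a and Spp1 lie at or below -1.03 in both comparisons of samples with Hh-CM, and in the libraries labelled Esrrb without Hh-CM all 27 lie between -0.31 and 0.33.

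Receptors and factors linked to ERRs or PGC-1 proteins, called partners here, were counted in the same way, 19 of 29 being tested. Not all of them pair with these proteins on DNA, since the list also holds Tfam, Tfb1m and Tfb2m. Against Control, 16.4% of all tested genes were called in the libraries labelled Esrrb and 35.0% in those labelled Esrrb+Hh-CM. Only Rxrb, a retinoid X receptor, passed in the libraries labelled Esrrb, with a fall of 0.27 (adjusted p = 0.0358) that was lost without Esrrb replicate 1, among 6 alternatives (up to 0.141). With Hh-CM 3 rose and 1 was called lower, where 18.0% of all tested genes were called, and without Hh-CM replicate 2 these were 2 and 1. Nr3c1, the glucocorticoid receptor, rose from 26.1 to 40.8 FPKM (0.64, adjusted p = 0.000883), and Mef2c, a muscle and neural transcription factor, rose from 2.67 to 4.56 FPKM (0.75, adjusted p = 0.00605). Rxra rose by 0.27 (adjusted p = 0.0255), a call lost without any one of the Control or Hh-CM samples (up to 0.123). The fourth, Ppard, was listed at 0 in both Hh-CM samples and has no fold change, since summing all loci of the gene gave a difference of 0.24 (adjusted p = 0.604). Nr3c1 alone passed in the libraries labelled Esrrb+Hh-CM against Control (0.68, adjusted p = 0.000319), and 2 rose without Esrrb replicate 1. Nrf1, Gabpa, Yy1 and Creb1, partners or regulators of PGC-1α, passed in none of these 3 comparisons.

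Of other coregulators of nuclear receptors 28 of 30 were tested. With Hh-CM against Control 18.0% of all tested genes were called. In the libraries labelled Esrrb+Hh-CM against Control 10 rose, 5 fell and 13 did not pass, with a median of 0.05 beside 0.08, in a comparison where 35.0% of all tested genes were called. Lcor, a ligand-dependent corepressor, rose from 1.23 and 1.31 FPKM to 3.46 and 2.54 FPKM (1.16, adjusted p = 0.00629), although its loci differed in extent between samples (lowest overlap 0.647). Ep300, a histone acetyltransferase, rose by 0.45 (adjusted p = 0.00692). Sirt1, the deacetylase that activates PGC-1α, rose by 0.78 (adjusted p = 0.0198), a call lost without Control replicate 1 (0.0632) or Esrrb+Hh-CM replicate 2 (0.0856). Counts in the libraries labelled Esrrb were 1 higher and 2 lower, namely Ep300 (0.33, adjusted p = 0.0379), Ncor1 (-0.29, adjusted p = 0.0323) and Prmt1 (-0.21, adjusted p = 0.0316), where 16.4% of all tested genes were called. Each of the 3 calls was lost in 7 to 10 of 18 alternatives, among them those without either Control sample (adjusted p up to 0.142), and without Esrrb replicate 1, or without Hh-CM replicate 2, none rose and 1 fell. With Hh-CM 4 rose and 2 fell, among them Ctbp2, a corepressor (0.32, adjusted p = 0.0205, lost without any one Control or Hh-CM sample, up to 0.101), and the counts were 2 and 3 without Hh-CM replicate 2 and 3 and 1 without Esrrb replicate 1.

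Of 16 pluripotency genes with Esrrb sites 4 were tested, since Nanog, Pou5f1, Sox2 and Zfp42 were all below 1 FPKM. Against Control, 16.4% of all tested genes were called in the libraries labelled Esrrb, 18.0% with Hh-CM and 35.0% with both. With both, 23.0% of all tested genes were called higher. Tbx3 rose in the libraries labelled Esrrb, from 2.77 to 5.32 FPKM (0.91, adjusted p = 0.00980) and Klf5 from 3.61 to 5.08 FPKM (0.49, adjusted p = 0.0257), and both calls were lost without Esrrb replicate 1 and without Control replicate 2 (up to 0.0543 and 0.109), that of Klf5 also without Hh-CM replicate 2. With Hh-CM Klf4 rose by 1.34 (14.6 to 36.9 FPKM, adjusted p = 0.000232) and Klf5 by 0.77 (adjusted p = 0.00462). With both, all 4 tested genes rose against Control, Klf5 by 1.30, Klf4 by 1.29, Tbx3 by 0.89 and Klf2 by 0.60, and Klf2 lost its call without any one Control or Esrrb+Hh-CM sample (adjusted p up to 0.105).

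The remaining comparisons hold Hh-CM or the vector constant. Between Esrrb+Hh-CM and Hh-CM 7 targets, 1 partner, 4 coregulators and 2 pluripotency genes were higher and 2, 1, 3 and 0 lower, beside 18.9% called of all tested genes. Without Hh-CM replicate 2 the higher ones were 4, 1, 1 and 0 and the lower ones 2, 0, 0 and 0, and without Esrrb replicate 1 the coregulators were 2 and 1. The partner called higher was Ppard, listed at 0 in Hh-CM as above. Pdk4 fell by 0.77 there (adjusted p = 0.000259) and Vegfa, the gene of the main angiogenic factor, rose by 0.43 (adjusted p = 0.00568). Between Esrrb+Hh-CM and Esrrb 6 targets, 2 partners, 4 coregulators and 3 pluripotency genes were higher and 3, 0, 4 and 0 lower, beside 23.4% called of all tested genes. Without Esrrb replicate 1 the higher ones were 3, 1, 3 and 3 and the lower ones 3, 0, 3 and 0, and without Hh-CM replicate 2 they were 3, 2, 2 and 2 higher and 3, 0, 5 and 0 lower. Pdk4 fell by 1.74 (adjusted p = 1.08e-05), Cpt1a by 1.35 (adjusted p = 1.65e-05) and the acetyltransferase gene Kat2b by 0.51 (adjusted p = 0.00141), while Lcor rose by 0.99 (adjusted p = 0.016), a call lost without Esrrb replicate 1 or Esrrb+Hh-CM replicate 1 (up to 0.0774).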

How the data were processed

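RNA-Seq of 8 NIH3T3 samples was used, with conditions and replicate numbers from the sample titles. The deposited values are FPKM with confidence limits. The authors trimmed reads with FASTX-Toolkit, mapped them with TopHat2 and Bowtie2 (build mm9), and assembled each sample with Cufflinks guided by the annotation, on stranded mRNA libraries. Tool versions are not given in the sources used here, and read counts were not used here, so depth was only estimated relative to Control replicate 1.

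Loci were matched by position, since Cufflinks numbers them anew in each sample. Each GENCODE vM1 gene (mm9) took the locus with the largest overlap (shared over combined length) of at least 0.5, and 20194 genes had one in all 8 samples. The 10283 genes with at least 1 FPKM in at least 2 samples were fitted on log2(FPKM + 0.1) with limma 3.58.1 in R 4.3.3, as 4 group means with a variance trend and Benjamini-Hochberg adjustment, two-sided. A gene changed at an adjusted p below 0.05. The fit was tested on simulated data. Matching and figures used matplotlib 3.10.9, pandas 2.3.3, numpy 2.4.6 and Python 3.11.15.

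The 8 genes and all lists were chosen with earlier results of these data known. Text names the 8 genes, up to 4 genes per list and comparison with the largest change among those that passed and did not overlap between groups, and for each tested gene the 3 of highest Pearson correlation. Trmt112, Tek, Pecam1, Cdh5, Ptprc, Cd68, Emr1, Fn1, Col3a1, Cs and Hadha were chosen after their values were seen. So were the respiratory and partner genes named as not passing, and the Pdk4 and Atp5b values given beside them. A gene of the coregulator list that the rule would name is not reported here. Promoters came from RefSeq or the mm9 genome. Alternatives changed the pseudocount (1 or 0.001), the FPKM limit, the call rule, the scaling, the locus choice, the variance trend, the groups fitted and the samples, and added a replicate block. Same-numbered samples did not deviate together (correlations -0.0596 to 0.0624), so the numbers were not taken as pairs.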

Additional observations from a re-analysis of the deposited data

Results flagged for a closer look

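The response to Hh-CM differed between the lines in 3 genes of the lists, by the limma test of the interaction over all genes, and in none of the 8 genes. For Pdk4 the interaction was -0.62 (SE 0.052, adjusted p = 0.00841), both lines being lower with Hh-CM. For Prmt1, an arginine methyltransferase that acts on PGC-1α, it was 0.46 (adjusted p = 0.0401), with means of 148.4 FPKM in Control, 122.5 with Hh-CM, 128.6 with the Esrrb label and 145.5 with both. The Prmt1 call was lost in 11 of 17 alternatives (adjusted p up to 0.11), among them those without each single sample. For Ppard it was 7.14 (adjusted p = 5.56e-06), set by loci listed at 0 in both Hh-CM samples, and summing all loci of the gene gave -0.33 (adjusted p = 0.691).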

How the results depend on the processing

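Under 20 alternatives, 109 of 119 recomputed counts of changed members lay within 1.5 times the reported count. With a limit of 1 FPKM in every sample Ppargc1a left the test, and the counts fell to 0 for Esrrb against Control and for Esrrb+Hh-CM against Hh-CM, and to 1 for Esrrb+Hh-CM against Control. The last count was also 1 when a log2 fold change of at least 1 was required and when only genes with the same locus in all samples were tested, an alternative chosen after seeing the data. It was 1 to 2 when single samples were left out, 1 of them without either Control sample. Esrrb+Hh-CM against Esrrb gave 1 in place of 0 with a pseudocount of 0.001, without a variance trend and with the same locus in all samples. Leaving out single samples gave 1 throughout for Esrrb against Control and for Esrrb+Hh-CM against Hh-CM, and 0 for the other comparisons. The replicate block gave 2 members for Esrrb+Hh-CM against Control, where Nrip1 lost its call (adjusted p = 0.0826), and changed no other call of a member. The replicate numbers share only a number (mean correlation of deviations 0.00547 over 6 pairs of conditions).

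Of 428 recomputed fold changes of members, 400 kept direction and call, 15 lost the call (13 of Nrip1 and 2 of Pprc1), 3 gained it and 10 changed sign, all 10 from values that had not passed. Ncoa3 was -0.35 to 0.20 in Esrrb against Control when single samples were left out, the latter without Control replicate 1. In Esrrb+Hh-CM against Control it was -0.06 on rescaled FPKM, -0.25 without Control replicate 2 and -0.13 without Esrrb+Hh-CM replicate 2, within -0.25 to 0.29 over all single samples left out. In Esrrb+Hh-CM against Esrrb it was -0.05 without Esrrb+Hh-CM replicate 2 (-0.05 to 0.25). The interaction of Pprc1 was 0.00 without Control replicate 2, 0.01 without Esrrb replicate 1 and 0.06 without Hh-CM replicate 2 (-0.08 to 0.06), and that of Nrip1 was 0.07 without Control replicate 2 and 0.00 without Hh-CM replicate 2 (-0.23 to 0.07). With all loci of a gene summed Ppard was 0.24 in Hh-CM against Control, -0.19 in Esrrb+Hh-CM against Hh-CM and -0.33 in the interaction, where its main locus had been listed at 0. Of 1362 recomputed fold changes of listed genes 159 lost the call, and the cause was not tested. At this depth Esrrg and Esrrb values came to at most 3 steps per sample, where counting error is large, and 2 samples per condition limit every test.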
